A study of Mus musculus with 65 samples.

Results

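Retinal RNA from 6 adult C57BL/6J mice was compared, 3 at day 5 (DEP5) and 3 at day 2 (DEP2) of microglial depletion, out of 65 mice in 16 groups. The question was which microglial transcripts that were still present at day 2 were lower at day 5. All 6 mice had been fed PLX5622, an inhibitor of the receptor CSF1R, at 1200 ppm in the AIN-76A diet, and none had been returned to control diet or given lipopolysaccharide. They were chosen by the title suffix RE, which 39 of the 65 libraries carry and which the DEP5 mice all share. A DEP2 mouse of suffix re (replicate 1) was kept apart as a reference, as were the 3 RE mice on control diet (CD) and the 12 RE mice of DEP7, DEP10, DEP14 and DEP21 (3 mice each). Reads were counted per gene from whole retinal homogenate, so the microglial transcripts are a small share of each library. The total count was 7837012 to 8570563 in the 6 mice, and 3 counts, taken as the floor, corresponded to 0.350 to 0.383 CPM, a count scaled to a common library size. No pair of replicates agreed within sampling noise, and nothing in the labels says whether the mice of a group shared a litter or a cage, so p-values measure only the spread between these mice.

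Microglia are the resident macrophages of the retina. They sit in the plexiform layers, carry the fractalkine receptor and the purinergic receptor P2RY12 on their processes, make most of the complement component C1q of the tissue, and digest what they engulf in lysosomes rich in cathepsins. Their survival depends on signalling through CSF1R, which binds CSF1 and IL34, so an inhibitor of this receptor removes them. In bulk RNA, fewer microglia and less of a transcript per microglial cell cannot be told apart.

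A group of 20 microglia genes, chosen because they were low in later mice, was already scarce at day 2 and was scarcer at day 5, while the sum over all 63 genes of the microglia lists was nearly level. Of these 63 microglia genes in 6 lists by role, 42 had at least 5 counts on average in CD, and these were divided by their level in the later mice (DEP7 to DEP21), which are not among the 6 compared. In 20 of them the later mean was under 20% of the CD mean. The summed level of these 20 genes was 41.4, 40.4 and 49.7 CPM in the CD mice. It was 3.05, 3.96 and 2.88 CPM in the DEP2 mice, and 1.30, 1.21 and 1.57 CPM in the DEP5 mice. Every DEP5 mouse was thus below every DEP2 mouse, and both groups were far below CD. As means, 43.8 ± 5.09 CPM in CD (SD, n = 3) stood against 3.30 ± 0.581 in DEP2 (SD, n = 3) and 1.36 ± 0.186 in DEP5 (SD, n = 3), or 7.53% and 3.11% of CD. The reads behind these values were 82 in the DEP2 mice and 34 in the DEP5 mice, a ratio of 0.415 with an exact (Clopper-Pearson) 95% interval of 0.270 to 0.626 that covers counting error only. The log2 ratio of the means was -1.28, and it was -0.44 when all genes under 50% of CD in the later mice were summed instead. No test was made of these sums, because the genes were grouped with results of these data known.

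The DEP2 mouse of suffix re gave 22 counts and 2.93 CPM (scaled by library total) for the same 20 genes, within the range of the other DEP2 mice. After day 5 the sum stayed near its day 5 level. The DEP7 mice averaged 1.02 ± 0.365 CPM and the DEP10 mice 1.16 ± 0.150 CPM, and those of DEP14 and DEP21 averaged 0.964 ± 0.609 and 1.07 ± 0.574 CPM (SD, n = 3 each). The DEP5 mice lay inside the range of the 12 later mice, 0.261 to 1.71 CPM, and all 3 DEP2 mice lay above it. The low level of the later mice is fixed by the choice of genes, but the 4 later mice of suffix re, which that choice did not use, gave 0.9501 to 1.882 CPM.

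**Figure D1:**
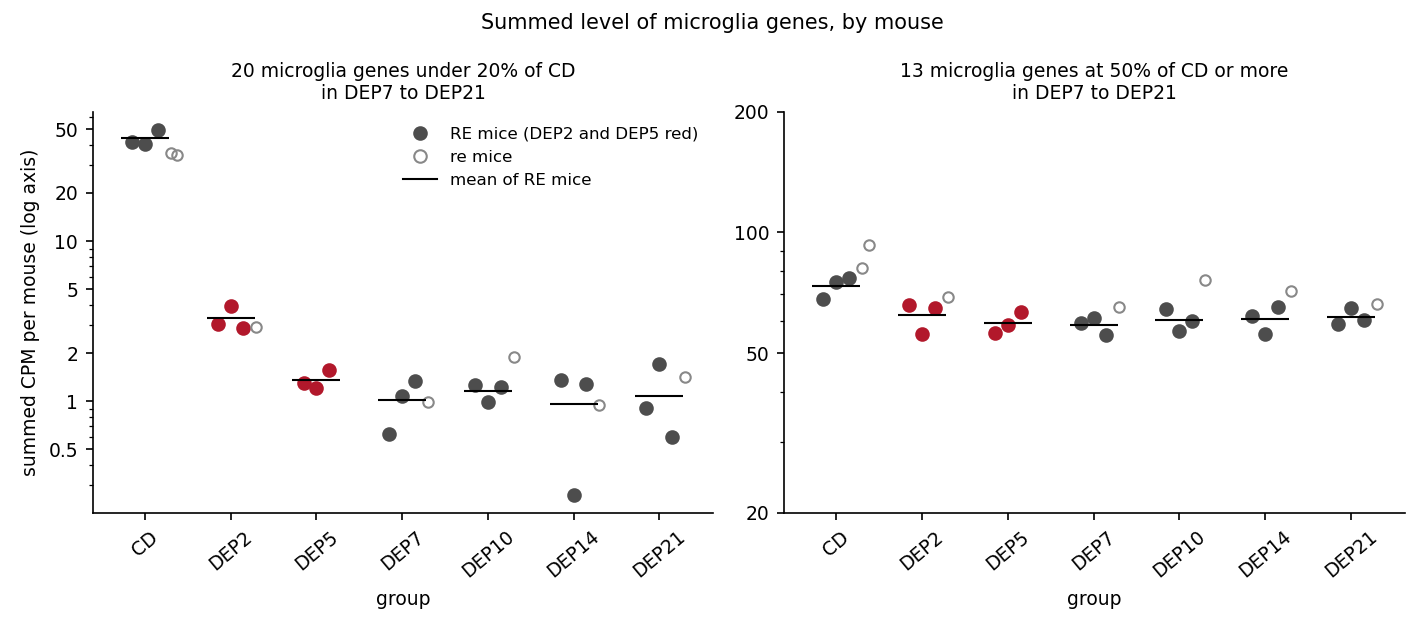
Summed CPM per mouse (log axes) of the 20 microglia genes whose later level was under 20% of CD (left) and of the 13 whose later level was 50% of CD or more (right), by group. Filled points are RE mice (DEP2 and DEP5 in red), open points are re mice scaled by library total only, and bars are means of the RE mice. On the left the 3 DEP2 mice sit at 2.88 to 3.96 CPM and the 3 DEP5 mice at 1.21 to 1.57 CPM, while on the right the 2 groups overlap.

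The number of these genes with any read was also lower in DEP5. Between 12 and 13 of the 20 had a count in each DEP2 mouse, and between 5 and 7 in each DEP5 mouse. The mean was lower in DEP5 for 16 of the 20 genes and higher for 3 (Tyrobp, Dock2 and Trem2), where Itgam among the lower and Trem2 among the higher had equal counts and differed by library size alone, and Siglech had no count in either group. Of the 20 genes, 9 had no count in any DEP5 mouse and 2 had none in any DEP2 mouse. A count of 0 in 1 library allows up to 3 counts, so these genes were not detectable at this depth rather than shown to be absent.

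The complement genes and Ctss were among the genes with the lowest day 5 levels. C1qa, C1qb and C1qc encode the 3 chains of C1q, the recognition molecule of the classical complement pathway, and lie side by side on chromosome 4 (mm10, 136880129 to 136898803). C1qa had 36, 24 and 33 counts in the CD mice, 2, 5 and 2 in the DEP2 mice and 1, 0 and 0 in the DEP5 mice. Over the groups this was 9 counts against 1, a ratio of 0.111 (exact 95% counting interval 0.00254 to 0.802). The 2 groups did not overlap, but only by 1 count against 2, both under the floor of 3. C1qc had 1, 1 and 2 counts in the DEP2 mice and none in the DEP5 mice. With the 3 DEP5 mice together set to the floor of 3 counts, this is 1.33-fold lower. Counting error of the DEP2 reads is not in this value, so it is not a lower limit. C1qb had 1, 2 and 0 counts in the DEP2 mice and none in the DEP5 mice, too few for a fold. In CD, C1qc had 27, 19 and 39 counts and C1qb had 27, 27 and 36.

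Ctss encodes cathepsin S, a lysosomal protease of antigen-presenting cells. It had 60, 82 and 69 counts in the CD mice, 4, 2 and 6 in the DEP2 mice and 1, 0 and 1 in the DEP5 mice. The ratio of the summed counts was 0.167 (exact 95% counting interval 0.0181 to 0.749). No DEP5 mouse reached the lowest DEP2 mouse, but only by 1 count against 2, both under the floor. The 4 genes together, put together with their values known, had 28 counts in DEP2 and 3 in DEP5. They made up 34.1% of the counts of the 20 genes in DEP2 and 8.82% in DEP5, against 43.6% in CD. The other 16 genes had 54 counts in DEP2 and 31 in DEP5, a ratio of 0.574.

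Receptors and surface proteins of resting microglia varied. Cx3cr1, the fractalkine receptor, had 29, 15 and 59 counts in the CD mice, 1, 1 and 4 in the DEP2 mice and none in the DEP5 mice. This is 1.999-fold lower against the floor of 3 counts over the DEP5 mice, again without the counting error of the DEP2 reads. Tmem119, a surface protein used to tell microglia from other macrophages, had 12, 14 and 11 counts in CD and a single count in the 6 mice compared, in DEP2 replicate 4. Selplg, Cd33 and P2ry13 likewise had 1 count in all of DEP2 and none in DEP5, and Siglech had none in either. P2ry12 had 2, 4 and 2 counts in the DEP2 mice and 2, 0 and 2 in the DEP5 mice. The ratio was 0.5003, and its exact 95% counting interval, 0.110 to 1.87, includes 1. Gpr34, a receptor for lysophosphatidylserine, had 3, 5 and 0 counts against 2, 0 and 4, and its groups overlapped.

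Trem2 and Tyrobp, which encode the receptor TREM2 and the adaptor through which it signals, were at the floor at both times. Trem2 had 1, 0 and 0 counts in the DEP2 mice and 1, 0 and 0 in the DEP5 mice, and Tyrobp had none in DEP2 and 0, 0 and 1 in DEP5. Itgam, the CD11b chain of complement receptor 3, had 0, 1 and 0 counts against 0, 1 and 0. The lysosomal membrane protein gene Laptm5 had 4, 3 and 2 counts in the DEP2 mice and 0, 4 and 0 in the DEP5 mice, so that DEP5 replicate 2 alone reached the DEP2 level. Pld4, an endolysosomal exonuclease, had 2, 4 and 1 counts against 1, 2 and 1.

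**Figure D2:**
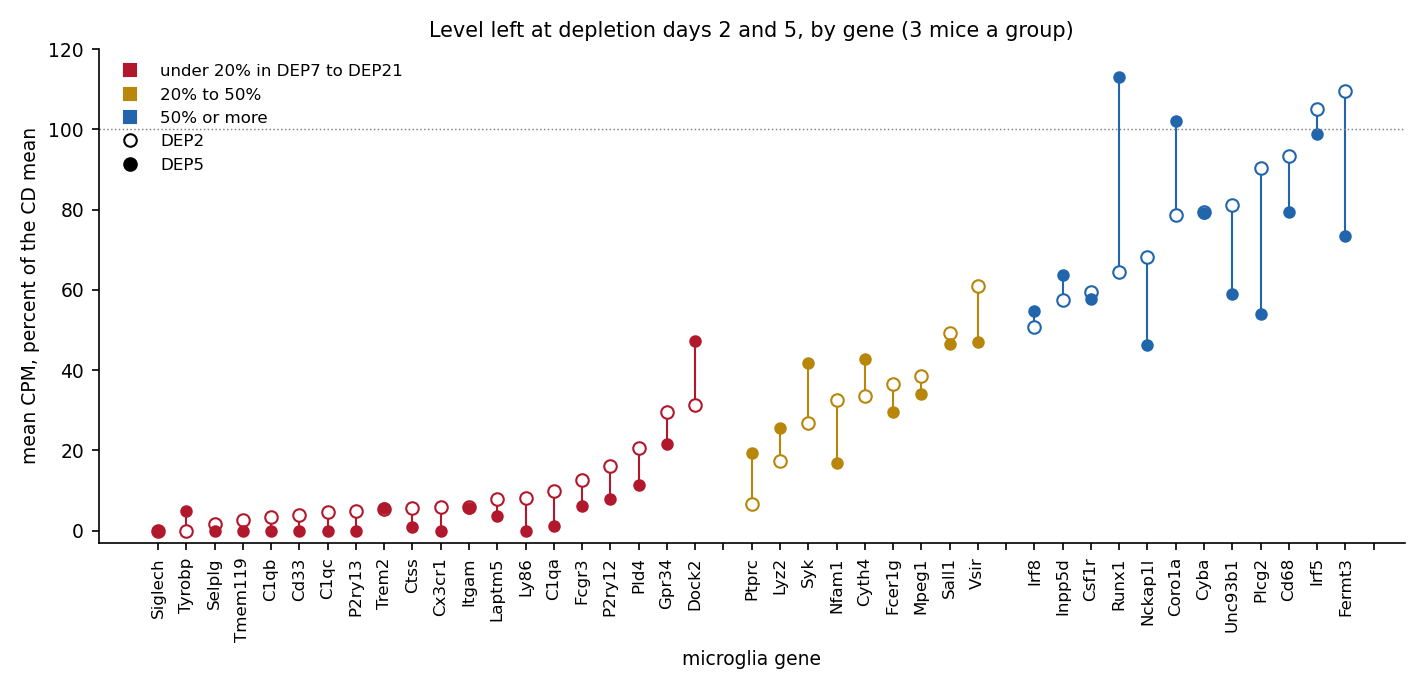
Mean CPM in DEP2 (open circles) and DEP5 (filled circles) as a percent of the CD mean, for 41 of the 42 microglia genes with at least 5 counts on average in CD (3 mice a group). Colours mark the later level of each gene. Among the 20 genes in red, C1qa goes from 9.95% to 1.07% and Ctss from 5.56% to 0.939%, while blue genes such as Csf1r (59.5% and 57.6%) lie close together or scatter both ways.

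The promoters of C1qc and Inpp5d are shown because both hold a motif of PU.1. In the later mice C1qc was under 20% of CD and Inpp5d at 50% or more. PU.1, the product of Spi1, is a transcription factor that myeloid cells need, and it binds sites with the letters GAGGAAGT. Of the 63 microglia genes, 47 have promoters in the RefSeq table used here (GRCm38.p6), and 3 of these 47 (6.38%) hold GAGGAAGT or its reverse complement ACTTCCTC within 250 bases before the start, against 2.79% of 27025 genes in the table. The 3 are C1qc, Inpp5d and Vav1. The stretches below run 5′ to 3′ on the strand of the gene, with the match in capitals. C1qc is one of the genes with no count at day 5, and Inpp5d, a phosphatase of immune receptor signalling, is one held at 50% of CD or more in the later mice. They lie at chr4:136892915-136893164 (minus strand) and chr1:87620062-87620311 (plus strand).
C1qc: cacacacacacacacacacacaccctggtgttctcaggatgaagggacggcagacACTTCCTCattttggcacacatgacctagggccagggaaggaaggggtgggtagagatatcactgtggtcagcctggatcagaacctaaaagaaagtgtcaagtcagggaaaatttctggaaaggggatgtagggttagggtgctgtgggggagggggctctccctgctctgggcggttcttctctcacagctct
Inpp5d: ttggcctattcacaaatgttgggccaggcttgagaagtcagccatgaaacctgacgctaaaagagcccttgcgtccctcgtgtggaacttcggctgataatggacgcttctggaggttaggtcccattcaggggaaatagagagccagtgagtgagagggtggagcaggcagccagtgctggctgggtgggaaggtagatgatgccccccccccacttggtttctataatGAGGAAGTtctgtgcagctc
The match begins 195 bases before the start in C1qc and 20 bases before it in Inpp5d. Of the 20 genes under 20% of CD, 15 have promoters in the table and 1 holds the match, and of the 13 genes held at 50% or more, 9 have promoters and 1 holds it. A match is a description of the sequence, and Spi1 itself had 1, 0 and 1 counts in the DEP2 mice and none in the DEP5 mice.

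Not every gene of the microglia lists was low at day 2. In 13 of the 42 the later mean was 50% of CD or more. These 13 made up 86.2% of the summed CPM of the microglia lists in DEP2 and 88.7% in DEP5. Their sum was 66.0, 55.9 and 64.7 CPM in the DEP2 mice and 56.0, 58.6 and 63.2 CPM in the DEP5 mice. The 2 groups overlapped, and their means, 62.2 ± 5.51 and 59.3 ± 3.67 CPM (SD, n = 3 each), were 84.7% and 80.7% of CD. In the later mice the mean was still 60.4 CPM, 82.3% of CD. The paper reports complete loss of retinal microglia within the span of these later mice. Which cells the reads of the 13 genes came from was not tested. The log2 fold changes of the 13 genes ran from -0.75 (Plcg2) to 0.76 (Runx1).

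Csf1r, the receptor that PLX5622 blocks, had 134, 106 and 166 counts in the CD mice, 84, 60 and 98 in the DEP2 mice and 93, 66 and 74 in the DEP5 mice. Its log2 fold change from DEP2 to DEP5 was -0.06 ± 0.17 (SE), and its level stayed at 57.6% of CD in DEP5 and 51.0% in the later mice. Irf5, a transcription factor of macrophages, was near its CD level throughout. It had 139, 125 and 145 counts in the DEP2 mice and 125, 129 and 130 in the DEP5 mice. The sum over all 63 genes was 74.7, 68.5 and 73.1 CPM in the DEP2 mice and 64.2, 65.0 and 71.3 CPM in the DEP5 mice, a log2 ratio of the means of -0.11. The mean of log2(CPM + 1) over the 63 genes was 0.588 ± 0.0111 in DEP2 and 0.534 ± 0.0240 in DEP5 (SD, n = 3 each). Each gene enters this score once, but changes at levels well under 1 CPM add little to it.

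The other genes of this kind had fold changes of both signs, and none passed the test. Fermt3, which encodes the integrin activator kindlin-3 of blood cells, had 37, 33 and 36 counts in the DEP2 mice and 22, 27 and 22 in the DEP5 mice, without overlap (log2 fold change -0.58 ± 0.23, SE). Plcg2, a phospholipase downstream of immune receptors, had 18, 11 and 13 counts against 6, 9 and 10. Nckap1l, a subunit of the actin-regulating WAVE complex, had 10, 15 and 13 counts against 8, 9 and 9. Runx1, a transcription factor of blood cell formation, had 4, 2 and 5 counts against 5, 7 and 7, with the DEP5 mice above the DEP2 mice on the CPM scale. Coro1a, an actin-binding protein of leukocytes, had 45, 26 and 45 counts against 37, 53 and 59. Cd68, a lysosomal glycoprotein of macrophages, had 16, 7 and 9 counts against 8, 7 and 12, and Cyba, a subunit of the phagocyte oxidase, had 13, 18 and 16 against 9, 19 and 19.

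The remaining 9 of the 42 genes had later levels between 20% and 50% of CD. Their sum went from 5.37 ± 1.45 CPM in DEP2 to 5.04 ± 0.742 CPM in DEP5 (SD, n = 3 each), with overlap. Mpeg1, which encodes the pore-forming protein perforin-2 of macrophages, had 7, 20 and 12 counts in the DEP2 mice and 15, 5 and 15 in the DEP5 mice. Sall1, a transcription factor of microglia, had 6, 9 and 6 counts against 8, 7 and 5. Fcer1g, the common gamma chain of Fc receptors, had 6, 6 and 4 against 5, 4 and 4, and Vsir, an immune checkpoint protein, had 11, 14 and 7 against 11, 5 and 9. Ptprc, which encodes the leukocyte antigen CD45, had 0, 1 and 1 counts in the DEP2 mice and 2 in each DEP5 mouse. The 21 microglia genes with under 5 counts on average in CD had 31 counts in all in DEP2 and 29 in DEP5.

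No microglia gene passed the test between the 2 days. Differentially expressed genes (DEGs) were those at an FDR below 0.01 in the quasi-likelihood test of edgeR that also moved by more than 1 on the log2 scale, and 23298 genes were tested, those with a count in at least 2 of the 3 mice of either group. In all, 5 genes were DEGs (0.0215%), all higher in DEP5, and none was lower. DESeq2 gave 5 DEGs and the likelihood ratio test of edgeR gave 9, again with none lower. Without adjustment, 1206 genes (5.18%) had a p under 0.05, of which 659 (2.83% of those tested) were higher and 547 (2.35%) lower. Of the 63 microglia genes 45 were tested, 10 of them only because DEP2 mice had reads and 2 only because DEP5 mice had. None of the 45 was a DEG by edgeR, by the likelihood ratio test or by DESeq2. At an unadjusted p under 0.05 by edgeR, 5 were lower (11.1% of the 45, beside 2.35% of all genes) and 0 higher. In order of p by edgeR's quasi-likelihood test the 5 were Ctss (0.0144), Cx3cr1 (0.0146), Fermt3 (0.0159), C1qa (0.0192) and C1qc (0.0351), with adjusted values of 0.911 for C1qc and 0.910 for the others. Since C1qa, C1qc and Cx3cr1 were tested only through DEP2, where they were higher, nothing is read from the share of 11.1%.

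In 8 of the 45 (17.8%) the DEP5 mice were all below the DEP2 mice, and in 2 (4.44%) all above. Over all genes tested these shares were 4.15% and 5.61%. The 8 were C1qa, C1qc, Ctss, Cx3cr1, Fermt3, Plcg2, Nckap1l and Irf5, and the 2 were Runx1 and Ptprc. C1qa, C1qc and Cx3cr1 had passed the filter only through DEP2, where they were higher, so nothing is read from these shares. The median log2 fold change of the 45 was -0.30, beside -0.01 over all genes tested. It was -0.21 with bounds, meaning that a group without a count was set to 3 counts, or the gene left out at the floor. Of the 45, 10 were tested only through DEP2 and 2 only through DEP5, so nothing is read from this median or from those by role. By role, the median was -2.78 for the 5 tested complement and integrin genes (-0.46 with bounds), -0.41 for 5 homeostatic surface genes, -0.34 for 6 genes of TREM2 and Fc receptor signalling, -0.25 for 9 lysosomal genes, -0.07 for 6 transcription factors and -0.01 for 14 haematopoietic signalling and cytoskeletal genes (0.34 with bounds). These lists were drawn up with earlier results of the same mice in view, so their counts are a description.

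**Figure D3:**
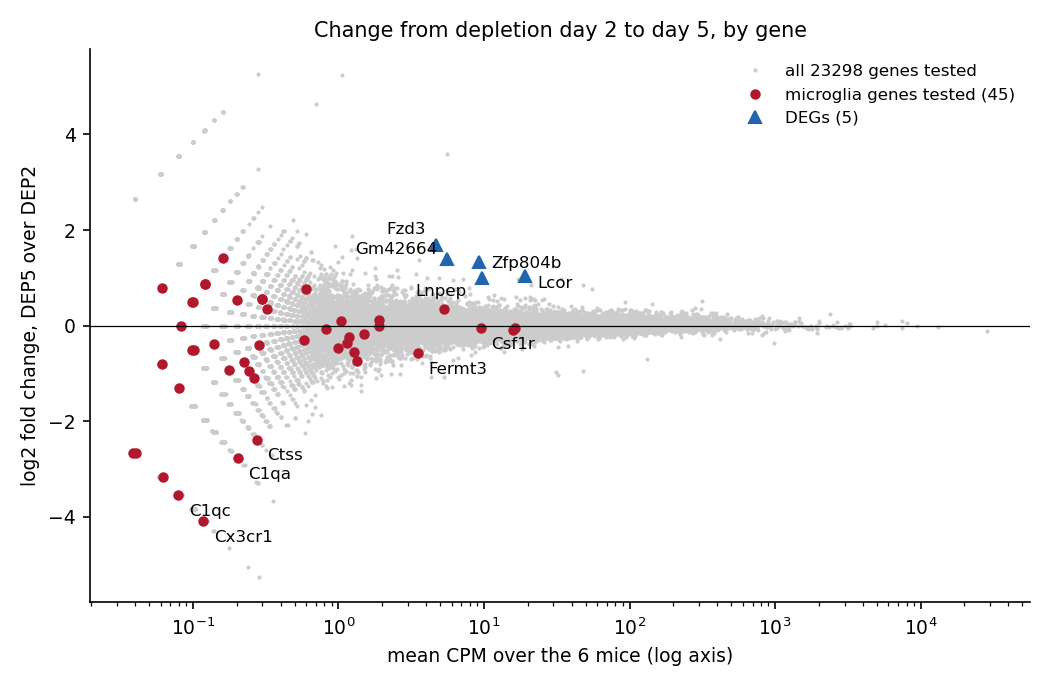
Log2 fold change from DEP2 to DEP5 against the mean CPM over the 6 mice (log axis) for the 23298 genes tested, with the 45 tested microglia genes in red and the 5 DEGs as blue triangles. C1qa, C1qc, Ctss and Cx3cr1 lie at the lower left, below 1 CPM, while Csf1r (-0.06) and Fermt3 (-0.58) lie at higher levels.

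Genes of other myeloid cells had mostly positive fold changes, which were not tested against those of the microglia genes. Of 18 genes of perivascular macrophages, monocytes and antigen presentation, 10 were tested, none was a DEG, and 4 (Ms4a7, Folr2, S100a9 and H2-Eb1) were higher in every DEP5 mouse than in every DEP2 mouse (5.61% of all genes tested were). At an unadjusted p under 0.05, 1 was higher (S100a9, beside 2.83% of all genes) and 0 lower. The median log2 fold change of the 10 was 0.56. The summed level of all 18 was 18.2 ± 1.62 CPM in DEP2 and 20.5 ± 1.32 CPM in DEP5 (SD, n = 3 each). This was a log2 ratio of 0.17, and the mice of the 2 groups overlapped. Lyve1, a hyaluronan receptor of perivascular macrophages and lymphatic vessels, had 140, 112 and 128 counts in the DEP2 mice and 121, 139 and 146 in the DEP5 mice. Folr2, a folate receptor of tissue macrophages, had 6, 6 and 4 against 7, 9 and 9, and Ms4a7, another macrophage surface protein, had 2, 3 and 4 against 5, 4 and 4. For Ms4a7, DEP2 replicate 4 and DEP5 replicates 2 and 3 had equal counts and differed by library size alone. S100a9, a calcium-binding protein of neutrophils and monocytes, had 0, 1 and 4 counts against 7, 6 and 6 (log2 fold change 1.84 ± 0.71, SE; adjusted p = 0.91 by edgeR). H2-Ab1, an MHC class II chain, had 14, 4 and 10 against 10, 7 and 9. Ly6c2, Cd163 and Clec12a had no count in any of the 6 mice.

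Most lists of other retinal cells had medians near 0. Of 196 genes in 19 further lists, 177 were tested and none was a DEG. The medians of the lists of rods, cones, bipolar cells, amacrine and horizontal cells, ganglion cells, Müller glia and gliosis lay between -0.05 and 0.04. Aqp4, the water channel of Müller glia, had a log2 fold change of 0.17 ± 0.08 (SE). C4b, a complement component made by glia, had 61, 52 and 50 counts in the DEP2 mice and 56, 58 and 74 in the DEP5 mice, beside 20, 24 and 50 in the CD mice. In the 11 genes of endothelium and pericytes the median was -0.19. The DEP5 mice were all below the DEP2 mice in 3 of them (Cldn5, Pecam1 and Rgs5), beside 4.15% of all genes tested. At an unadjusted p under 0.05 by edgeR 2 were lower, beside 2.35% of all genes tested. They were Pecam1 (-0.31 ± 0.14, SE), an adhesion molecule of endothelium, and Kdr (-0.24 ± 0.08, SE), a VEGF receptor. The ligands of CSF1R did not pass the test either, with 56, 67 and 52 counts of Csf1 against 39, 48 and 75, and 47, 29 and 36 of Il34 against 31, 26 and 35. Oasl2, an interferon-stimulated gene, had 94, 101 and 112 counts against 92, 75 and 83, without overlap on the CPM scale.

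**Figure D4:**
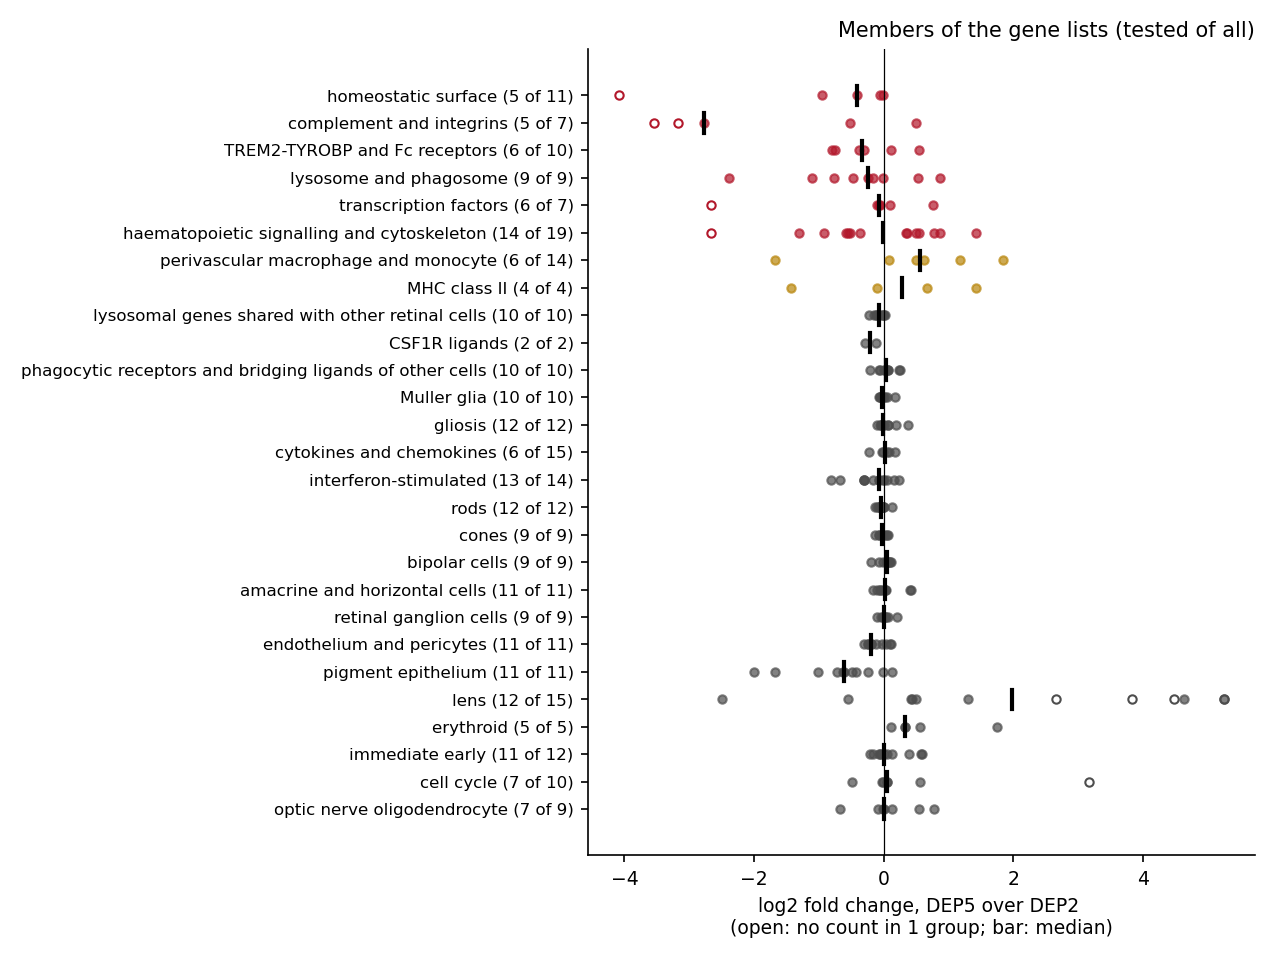
Log2 fold change from DEP2 to DEP5 of the tested members of each gene list (microglia lists in red, other myeloid lists in ochre, other lists in grey). The black bar is the median of the tested members and open circles are genes without a count in 1 of the groups. The medians of the neuronal and glial lists lie near 0, that of the pigment epithelium list is -0.61 and that of the lens list is 1.98. The lens median is 0.74 with bounds, as 4 of its 12 tested members had no count in DEP2.

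Markers of tissues next to the retina had wider fold changes. The 15 lens genes together had 24, 10 and 24 counts in the DEP2 mice and 20, 29 and 141 in the DEP5 mice, so that DEP5 replicate 3 stood apart, and 7 of the 15 were at 0 in all DEP2 mice. Cryaa, a lens crystallin, had 0, 0 and 1 counts against 1, 5 and 28, and Crybb2 had 1, 0 and 0 against 1, 4 and 47 (adjusted p = 0.304 and 0.256 by edgeR, DEGs by the likelihood ratio test). The 11 genes of the pigment epithelium, the cell layer behind the photoreceptors, summed to 23.4, 20.2 and 16.4 CPM in the DEP2 mice and 17.7, 11.4 and 13.03 CPM in the DEP5 mice. Best1, a chloride channel of this layer, had 9, 7 and 9 counts against 1, 2 and 3 (log2 fold change -2.00 ± 0.58, SE; adjusted p = 0.494 by edgeR), and Pmel, a melanosome protein, had 30, 25 and 22 against 18, 13 and 7. The 5 erythroid genes, which mark red blood cells, summed to 42, 61 and 61 counts in the DEP2 mice and 61, 74 and 76 in the DEP5 mice, and all 5 had positive fold changes (median 0.33). The part of these tissues and of blood in the differences of the microglia and other myeloid genes was not tested. Without DEP5 replicate 3 the log2 ratio of the 20 microglia genes was -1.39, beside -1.28 with it.

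The 5 DEGs are not myeloid genes. They were Fzd3, a WNT receptor of the Frizzled family, Lnpep, an aminopeptidase of endosomal vesicles, Lcor, a corepressor of nuclear receptors, the zinc finger gene Zfp804b, and Gm42664, annotated as a sense intronic transcript. Fzd3 (chromosome 14, 65192449 to 65262463, minus strand) had 16, 17 and 22 counts in the DEP2 mice and 60, 56 and 64 in the DEP5 mice. Its log2 fold change was 1.70 ± 0.21 (SE; adjusted p = 0.000283 by edgeR). Lcor (chromosome 19, 41482637 to 41562261, plus strand) had 116, 104 and 89 counts against 247, 187 and 206 (1.04 ± 0.13, SE; adjusted p = 0.000283 by edgeR). Zfp804b had 56, 42 and 32 against 131, 88 and 111 (1.33 ± 0.19, SE; adjusted p = 0.000946 by edgeR), Gm42664 had 30, 22 and 24 against 84, 72 and 47 (1.40 ± 0.22, SE; adjusted p = 0.00429 by edgeR), and Lnpep had 57, 45 and 59 against 128, 87 and 110 (1.004 ± 0.16, SE; adjusted p = 0.00522 by edgeR). Zfp871, Ncam2 and Sfpq also had an adjusted p under 0.01, but their log2 fold changes of 0.85, 0.98 and 0.52 were under the fold threshold.

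The 5 DEGs were at 39.2% to 57.5% of CD in the 3 DEP2 mice of suffix RE and at 114% to 128% of CD in DEP5. For each of the 5, no CD mouse was as low as the highest of those DEP2 mice, and Fzd3 had 44, 47 and 49 counts in CD. The DEP2 mouse of suffix re was not low, with 7.71 CPM of Fzd3 against at most 2.54 CPM in the other DEP2 mice. Among the 36 other RE mice, 2 mice returned to control diet (REPOP3 replicate 4 and REPOP10 replicate 3) were at or under the highest of the 3 DEP2 mice for all 5 genes. Gene by gene, the number of such mice was 2 for Fzd3, 3 for Lcor, 5 for Zfp804b, 7 for Gm42664 and 8 for Lnpep. DEP10 replicate 2, a mouse still in depletion, was among them for Lnpep and Zfp804b. The calls depended on the mice in the fit. No gene was a DEG without DEP2 replicate 3, without DEP5 replicate 1, or when the spread was estimated over all RE mice, although the log2 fold changes of the 5 genes ran from 0.88 to 1.71 in those fits. Lcor was also lost without DEP2 replicate 4, Gm42664 without DEP5 replicate 2, and Lnpep and Zfp804b without DEP5 replicate 3.

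**Figure D5:**
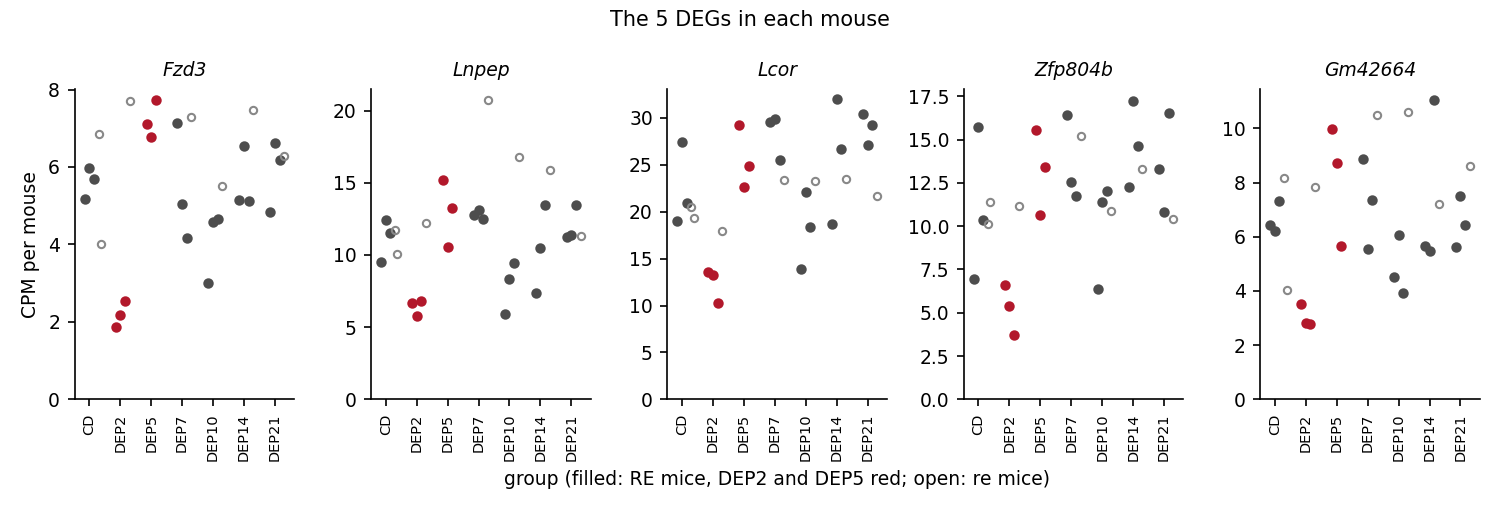
CPM per mouse of the 5 DEGs by group, with RE mice filled (DEP2 and DEP5 in red) and re mice open and scaled by library total only. In each panel the 3 red DEP2 points lie below the red DEP5 points and below the open DEP2 point (for Fzd3, at most 2.54 CPM against 7.71 CPM).

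With the 12 RE mice of DEP7 to DEP21 as 1 group, 0 of 23138 genes differed from DEP2 by edgeR, with 1238 at an unadjusted p under 0.05 (5.35%, with 3.18% higher and 2.17% lower), 5 DEGs by the likelihood ratio test and 4 by DESeq2. Of 45 microglia genes tested in this comparison 8 were lower at an unadjusted p under 0.05 (17.8%) and 1 higher. The 8 were Cx3cr1, Gpr34, C1qa, C1qb, C1qc, Ctss, Ly86 and Vsir, and the 1 was Cd52. C1qa had a log2 fold change of -3.41 (adjusted p = 0.222 by edgeR), with 2 counts in the 12 mice. It had thus passed the gene filter only through DEP2, where it was higher, so nothing is read from the share of 17.8%. Against DEP5, 0 of 23049 genes differed in the later mice by edgeR, by the likelihood ratio test and by DESeq2, with 1026 at an unadjusted p under 0.05 (4.45%, with 2.59% higher and 1.86% lower). Of 39 microglia genes tested there 1 was lower (Dock2) and 1 higher (Nckap1l) at that level. The first of these comparisons shares the DEP2 mice with that of the 2 days and the second shares the DEP5 mice, so they are not independent of it.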

How the data were processed

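The authors aligned 50 bp single-end reads to mm10 with HISAT2, counted them per gene with HTSeq and estimated FPKM with StringTie (versions not given in the sources used here). The deposited counts were used as they are, and the deposited FPKM only in an alternative. Both tables name genes by Ensembl identifier, and 50376 of 50686 were given symbols from a reference table. Positions are from GENCODE M21.

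Counts were fitted with edgeR 4.0.16 (TMM, group as the only term, quasi-likelihood test, Benjamini-Hochberg FDR) in R 4.3.3. The study's batch term was left out because its batches are not named. CPM used TMM library sizes over the 39 RE mice. Each SE was taken as the absolute log2 value divided by the square root of F. Fits were tested on simulated data. Some genes are not reported here by name.

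Alternatives were DESeq2 1.42.0, the likelihood ratio test, other scalings, filters, sample choices, a replicate block and leaving out each mouse. The text names genes by rule, namely DEGs where there were 20 or fewer, myeloid genes with a mean of at least 3 counts in DEP2 or named by the study, and by smallest p up to 10 genes per direction and 4 per other list. Any other gene named was picked with its values known. Members and lists were chosen with earlier results of these data known, and the division by later level was added after the data were seen.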

Additional observations from a re-analysis of the deposited data

How the results depend on the processing

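The number of microglia genes called stayed at 0 under all 10 alternatives and each of the 6 mice left out. The 5 DEGs from DEP2 to DEP5 became 9 with the likelihood ratio test, 15 without a gene filter, 14 at an FDR under 0.05 with no fold threshold, and 0 with all RE mice in 1 fit. The cause was not tested. Leaving out 1 mouse gave 0 to 15 (15 without DEP2 replicate 2, 10 without DEP2 replicate 4, and 0 without DEP2 replicate 3 or DEP5 replicate 1). The 0 DEGs from DEP2 to later mice became 4 with DESeq2, 5 with the likelihood ratio test and 1 without a gene filter, and 0 to 3 with 1 mouse left out (3 without DEP10 replicate 2). From DEP5 to later mice the count was 0 in every alternative and with every mouse left out.

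Replicate numbers are shared only by 2 pairs of the 6 mice, whose deviations correlated at 0.000952 and 0.291 over 12246 genes, and these 2 pairs are too few to show whether the numbers pair the mice. With the replicate block 8 genes were DEGs, 3 of them lower in DEP5. Lnpep, Lcor and Zfp804b lost their call under it, with log2 fold changes of 0.92, 0.81 and 0.99 under the fold threshold. The block gave 0 for the 2 comparisons with later mice.

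The log2 ratio of the summed 63 microglia genes (-0.11) ranged from -0.16 to -0.08 with 1 mouse left out, and the score difference (-0.05) from -0.07 to -0.05. The score difference was -0.0311 with deposited FPKM, -0.13 with genes of at least 1 CPM in CD and -0.21 with a pseudocount of 0.1. The log2 ratio of the 20 genes (-1.28) ranged from -1.39 to -1.12 with 1 mouse left out. It was -1.57 with deposited FPKM, -0.81 without the C1q genes and Ctss, -1.61 for genes under 10% of CD in later mice and -0.44 for genes under 50%, all lower in DEP5. At this depth a gene with fewer than 3 counts in a mouse is at the floor.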

Other observations

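The same division by later level, applied to all 16998 genes with at least 5 counts on average in CD, held 26 genes, of which 20 were in the microglia lists. The other 6 were Fyb, Havcr2, Ptgs1, Ighm, Gm42418 and Gm23935. Havcr2, which encodes the checkpoint receptor TIM-3 that microglia express, had 3, 9 and 5 counts in the CD mice, 1, 1 and 0 in the DEP2 mice and 1, 1 and 0 in the DEP5 mice. Fyb, an adaptor of haematopoietic cells, had 2, 11 and 6 counts in CD, 0, 1 and 0 in DEP2 and 0, 0 and 1 in DEP5. Gm42418 varied widely within groups, with 816, 8 and 2544 counts in the CD mice, 800, 6 and 816 in the DEP2 mice and 820, 9 and 2 in the DEP5 mice.

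No gene was lower in DEP5 at an FDR under 0.05. The lower genes of smallest p included Gm13029 (126, 143 and 136 counts against 97, 88 and 94), Lrrc75a (58, 56 and 77 against 37, 38 and 42), Eif3i, a translation initiation factor subunit (327, 242 and 362 against 234, 245 and 204), and Aldh3a1, an aldehyde dehydrogenase abundant in cornea (6, 7 and 1 against none). Aldh3a1 reached 115 counts in 1 of the later mice.

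Across 12205 genes with a mean of at least 5 CPM, the log2 fold change from DEP2 to DEP5 correlated with the length of the longest transcript (Spearman correlation 0.278, a description across genes, which share libraries). Of 4 equal bins by length, the median was -0.04 in the bin of shortest transcripts (up to 2342 bases) and 0.04 in that of the longest (from 5013 bases). Fzd3 and Lnpep, with transcripts of 12734 and 12052 bases, lie in the last of these, while Lcor (4833 bases), Zfp804b (4430 bases) and Gm42664 (3239 bases) do not. From DEP5 to the later mice the same correlation was -0.236. Its part in the DEGs was not tested.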
